A study of Mus musculus with 4 samples.

Results

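The enzymes that write, copy and erase DNA methylation, together with the core of Polycomb repressive complex 2 (PRC2), were examined in 4TO7 mouse mammary carcinoma cells isolated from anti-PD-L1-resistant and control tumors. The set holds 10 genes, chosen by name from 55385 genes in the deposited table: the DNA methyltransferases Dnmt1, Dnmt3a and Dnmt3b, the maintenance factor Uhrf1, the dioxygenases Tet1, Tet2 and Tet3, and the PRC2 core genes Ezh2, Eed and Suz12. All 10 were matched to an identifier, and all 10 passed the filter on low values. The resistant group holds 2 libraries of 4TO7 cells from BALB/c tumors resistant to immunotherapy, and the control group holds 2 libraries of 4TO7 cells from BALB/c control tumors. No engineered allele is named for either group, and all 4 samples come from the same line. The labels call every sample untreated, whereas the treatment protocol of every sample names anti-PD-L1 in vivo, so what the control tumors received is not clear. The series calls the libraries of a group biological replicates but does not say whether each came from its own animal, so the p-values below speak for the variation among these 4 libraries only.

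The libraries held 45666470 to 49592054 counted reads. The 2 control libraries differed more from each other than the 2 resistant ones (the log2 difference between the libraries of a pair had an SD of 0.31 over genes for resistant and 0.45 for control cells). The epithelial keratin genes Krt8 and Krt18 were expressed at 12649 normalized counts or more in every library. The epithelial gene Epcam was called lower (87.6 and 114 normalized counts in the resistant libraries, against 341 and 246 in the control libraries) and Krt19 higher (298 and 425 in the resistant libraries, against 48.0 and 41.4 in the control libraries). Of 4 fibroblast markers, Dcn was called lower (-1.99 ± 0.24), Pdgfra was not called, and Dpt and Lum had at most 2 reads in a library. The 4 fibroblast markers summed to 7103 and 8455 normalized counts in the resistant libraries, against 9268 and 6249 in the control libraries. These sums did not fall as Dcn did, and Dpt and Lum added next to nothing. They thus rest mostly on 1 gene, Pdgfra (log2 fold change 0.12), and do not speak for the markers as a set. The 4 endothelial markers summed to 14.3 and 17.2 normalized counts in the resistant libraries, against 30.7 and 19.2 in the control libraries. Of 8 leukocyte markers, only Cd68 had a mean high enough to be tested, and it was called higher (10566 and 9975 normalized counts in the resistant libraries, against 3227 and 6349 in the control libraries). The other 7, among them the pan-leukocyte gene Ptprc, summed to 14.3 and 15.0 normalized counts in the resistant libraries, against 8.65 and 12.1 in the control libraries. The part of these markers in the differences below was not tested. In bulk samples such as these, fewer cells of a type and less RNA per cell cannot be told apart.

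DNA methylation at CpG sites is set by Dnmt3a and Dnmt3b and copied after replication by Dnmt1, which Uhrf1 brings to hemimethylated DNA. The Tet enzymes oxidize the methyl group and so start its removal. PRC2 places the repressive methyl mark on lysine 27 of histone H3 through its catalytic subunit Ezh2, which is active only in a complex with Eed and Suz12. Both systems are known for silencing developmental and germline genes in somatic cells, and in tumor cells for lowering genes of antigen presentation and of the interferon response.

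Across the 10 genes, resistant and control cells differed in few places. Tet2 fell in resistant cells, and none of the other 9 genes passed the test. Among all 14238 genes tested, 10.1% were called in either direction and 4.73% were called lower, so 1 call among 10 genes is close to the share over all genes. Both resistant libraries lay outside the range of the control libraries for 5 of the 10 genes, against 56.7% of all tested genes. Of these, Uhrf1 and Dnmt3b were higher (28.4% of all tested genes) and Dnmt1, Tet1 and Tet2 lower (28.3%). At an unadjusted p under 0.05 in limma stood 3 of the 10 genes (Tet2, Tet1 and Dnmt3b), against 26.4% of all tested genes. The median log2 fold change of the 10 genes, resistant minus control, was -0.07, beside 0.0023 over all tested genes. Each difference was fitted with limma over the whole table, on log2 values that carry a pseudocount of 1, and called at a Benjamini-Hochberg adjusted p under 0.05.

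**Figure D1:**
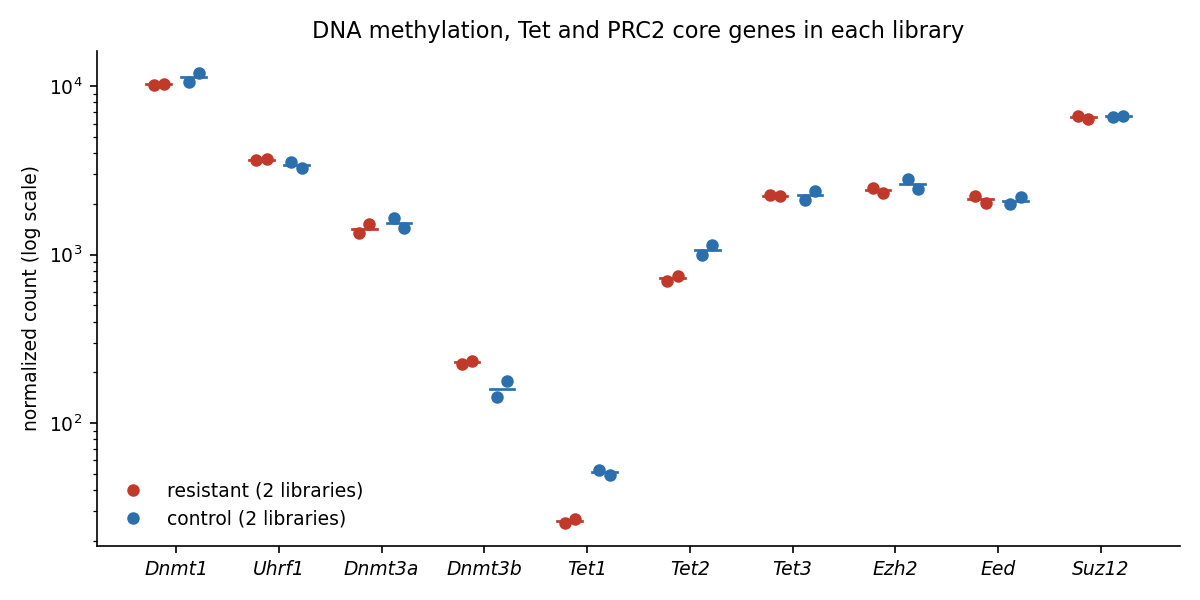
Normalized counts (vertical log axis) of the 10 genes, with 1 point per library, resistant libraries left of control libraries, and a bar at the mean of 2. The 4 libraries lie close together for Suz12, Eed and Tet3, whereas the resistant points lie below the control points for Tet1 and Tet2 and above them for Dnmt3b.

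The Tet genes held the clearest differences. Tet2 (ENSMUSG00000040943.12, chromosome 3, 133463679 to 133545139, minus strand, GRCm38) had 696 and 748 normalized counts in the resistant libraries, against 1000.0 and 1143 in the control libraries. Both resistant libraries were below both controls, and the gap between the groups was wider than the spread within either. Tet2 averaged 722 ± 36.5 normalized counts in resistant cells and 1071 ± 101 in control cells (SD, n = 2 each), a log2 fold change of -0.57 ± 0.14 (SE, limma adjusted p = 0.0434). On the linear scale it fell by 32.5%, with a 95% interval of the fold from 0.540 to 0.844. Tet2 is the dioxygenase of the family that is most often mutated in blood cancers. The call did not survive leaving out a resistant library, with adjusted p = 0.377 without resistant replicate 1 and 0.247 without resistant replicate 2, where the spread comes from the control pair alone. Testing all genes with a read ended it too (adjusted p = 0.121), while the fold change itself stayed between -0.66 and -0.47 in all fits that left out 1 library.

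Tet1, a dioxygenase best known from embryonic stem cells and germ cells, was scarce. It had 25.5 and 26.8 normalized counts in the resistant libraries, against 52.8 and 49.4 in the control libraries. The groups did not overlap, and the log2 fold change of -0.94 ± 0.30 was the most negative among the 10 genes. It did not pass in limma (adjusted p = 0.0962), and its interval of the fold was wide, from 0.321 to 0.846. Between 25 and 55 reads per library lay behind these values. A pseudocount of 1 also pulls the fold change of so low a gene toward 0.

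Tet3, the Tet enzyme of the oocyte and of many somatic tissues, was the most abundant of the family. It had 2250.1 and 2214 normalized counts in the resistant libraries, against 2119 and 2396 in the control libraries. The groups overlapped, and the log2 fold change of -0.01 ± 0.12 (adjusted p = 0.956) came with an interval of the fold from 0.822 to 1.19. A change of Tet3 as large as the estimate for Tet2 lies outside that interval.

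Because the differences of the Tet genes were unequal, their shares of the family differed between groups. Counted as reads per kilobase of merged exons, Tet3 made up 75.9% and 74.2% of Tet reads in the resistant libraries, against 66.9% and 66.9% in the control libraries. Tet2 made up 23.2% and 24.8% in the resistant libraries, against 31.3% and 31.6% in the control libraries. The ratio of Tet3 to Tet2 was 3.27 and 2.99 in the resistant libraries, against 2.14 and 2.12 in the control libraries. The ratios of the groups did not overlap, but they restate the difference of Tet2, since Tet3 hardly differed. They are given as a description, with no test.

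**Figure D2:**
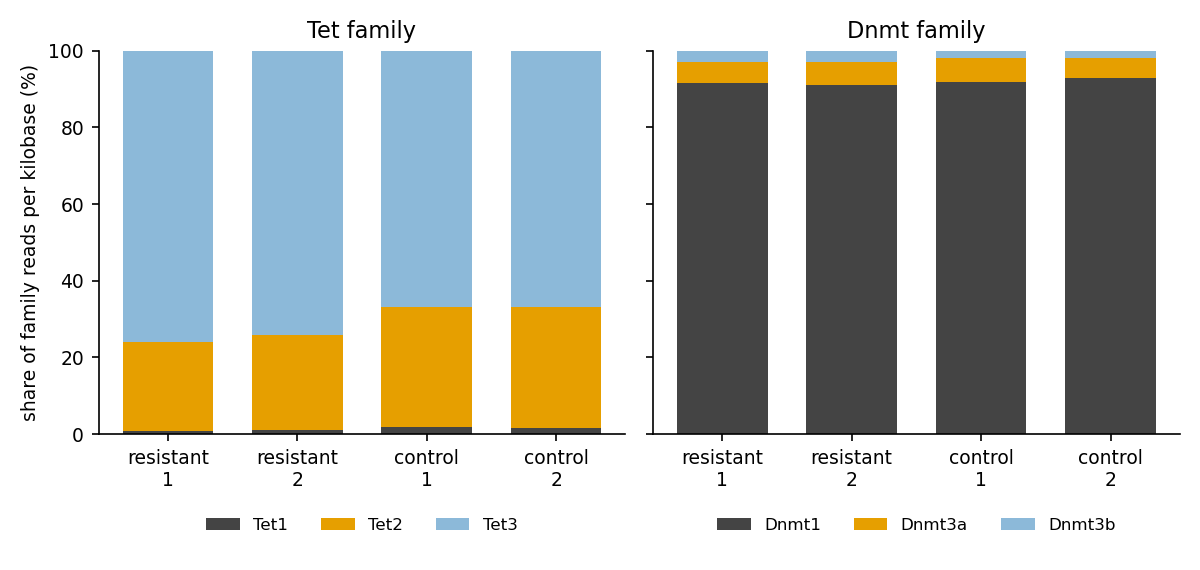
Share of each family's reads per kilobase (vertical axis, in percent) taken by each Tet gene (left panel) and each Dnmt gene (right panel), with 1 bar per library, resistant before control. Tet3 takes 74.2% to 75.9% of the Tet bars in resistant libraries and 66.9% in control libraries, and Dnmt1 takes 91.1% to 93.0% of the Dnmt bars in all 4.

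CpG is the sequence that these enzymes act on, and for each Tet gene 1 window at a RefSeq start is shown with its CpGs. Each window runs from 250 bases before to 50 bases after that start (GRCm38.p6), all 3 on the minus strand and written 5′ to 3′, with every CpG in capitals. The windows are chr10:62887275-62887574 for Tet1, chr3:133544341-133544640 for Tet2 and chr6:83441629-83441928 for Tet3. They do not lie at the same place in their genes: the start lies 0.749 kb inside the outermost annotated 5′ end of Tet2, but 21.7 kb inside that of Tet1 and 17.4 kb inside that of Tet3.
Tet1: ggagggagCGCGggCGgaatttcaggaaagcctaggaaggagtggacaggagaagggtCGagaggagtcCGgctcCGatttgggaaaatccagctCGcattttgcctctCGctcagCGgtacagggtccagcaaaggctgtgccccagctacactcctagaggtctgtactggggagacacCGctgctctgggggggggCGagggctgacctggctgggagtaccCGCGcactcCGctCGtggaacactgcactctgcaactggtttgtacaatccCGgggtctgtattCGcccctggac
Tet2: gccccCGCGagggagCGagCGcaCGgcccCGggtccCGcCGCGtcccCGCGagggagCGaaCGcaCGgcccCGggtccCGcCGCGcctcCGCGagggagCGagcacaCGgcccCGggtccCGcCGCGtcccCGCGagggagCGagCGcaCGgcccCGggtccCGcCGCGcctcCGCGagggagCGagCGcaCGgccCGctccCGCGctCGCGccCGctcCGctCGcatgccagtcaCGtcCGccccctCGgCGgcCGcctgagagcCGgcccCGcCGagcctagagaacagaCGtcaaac
Tet3: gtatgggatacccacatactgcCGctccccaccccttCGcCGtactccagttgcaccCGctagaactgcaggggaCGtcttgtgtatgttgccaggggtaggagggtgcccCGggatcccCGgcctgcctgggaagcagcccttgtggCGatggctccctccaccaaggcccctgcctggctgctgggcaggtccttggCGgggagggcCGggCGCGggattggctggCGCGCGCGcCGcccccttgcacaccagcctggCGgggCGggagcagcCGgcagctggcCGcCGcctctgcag
The Tet2 window held 57 CpGs, which was more than in 99.8% of 32851 mouse promoter windows of the same length, and many of them lie in a short unit that repeats along the first part of the window. The Tet3 window held 22 and the Tet1 window 17, against a median of 7 over all windows. These counts describe the reference sequence at these starts and not at others of the same genes, and they carry no information on how these sites were methylated in the cells.

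Next to Tet2, 691 kb away on chromosome 3 and with no tested gene between them, lies Cxxc4, which encodes the CpG-binding protein IDAX, a binding partner and negative regulator of the Tet2 protein. Cxxc4 was called lower as well, but it reached the tested mean only through the control libraries, so its call supports nothing here. It had 4.08 and 5.36 normalized counts in the resistant libraries, against 36.5 and 17.1 in the control libraries (log2 fold change -2.20 ± 0.51, limma adjusted p = 0.0358). Under a minimum mean of 50 it was not tested. The call rests on 4 and 5 reads in the resistant libraries, and it was lost without resistant replicate 1 (adjusted p = 0.173), without resistant replicate 2 (0.113) and in the unfiltered table (0.13). The 47 other tested genes within 5 Mb of Tet2 had a median log2 fold change of -0.07. Of these, 4 were called lower, Cxxc4 among them, and 1 higher, beside 4.73% and 5.32% over all tested genes. Tet2 was singled out because it was called, so its distance from that median says nothing about the region. Of the leukocyte markers, Cd68 was called higher, and the other 7 reached at most 8.15 normalized counts in any library. Whether leukocytes had a part in the Tet2 difference was not tested.

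The genes whose profile over the 4 libraries was nearest to that of Tet2 were Pou4f1, Gm20721, Ybey, Tbx15 and Nrap. Likeness was the Euclidean distance between log2 values centred on each gene's mean, over 4 libraries and all tested protein-coding genes. The distances ran from 0.026 for Pou4f1 to 0.053 for Nrap. Pou4f1 had 125 and 133 normalized counts in the resistant libraries, against 183 and 208 in the control libraries. None of these 5 genes passed the test.

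The methyltransferases came next. Dnmt1, which copies methylation onto new strands, was the most abundant of the 10 genes, with 10144 and 10357 normalized counts in the resistant libraries, against 10581 and 11927 in the control libraries. Both resistant libraries were below both controls by a narrow margin. Its log2 fold change of -0.13 ± 0.11 did not pass (adjusted p = 0.489), and the interval of the fold ran from 0.765 to 1.09. Uhrf1, the reader that recruits Dnmt1, had 3643 and 3691 normalized counts in the resistant libraries, against 3546 and 3263 in the control libraries. It lay slightly higher in resistant cells, with a log2 fold change of 0.11 ± 0.11 (adjusted p = 0.561) and an interval of the fold from 0.909 to 1.28. The intervals of both genes leave out a change of 1.5-fold in either direction.

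The 2 de novo enzymes had values of opposite sign. Dnmt3b had 225 and 235 normalized counts in the resistant libraries, against 142 and 178 in the control libraries. The groups did not overlap, and the log2 fold change of 0.53 ± 0.21 was the most positive of the 10 genes. It did not pass in limma (adjusted p = 0.152, interval of the fold from 1.04 to 2.01), although it passed when control replicate 2 was left out (0.69, adjusted p = 0.0159). Dnmt3a had 1336 and 1522 normalized counts in the resistant libraries, against 1650.4 and 1444 in the control libraries. Those groups overlapped, and the log2 fold change was -0.11 ± 0.13 (adjusted p = 0.635). Per kilobase of merged exons, the ratio of Dnmt3a to Dnmt3b was 1.82 and 1.99 in the resistant libraries, against 3.56 and 2.50 in the control libraries. Dnmt1 carried 91.7% and 91.1% of the reads per kilobase of the 3 methyltransferase genes in the resistant libraries, against 91.9% and 93.0% in the control libraries. In both groups the maintenance enzyme thus outweighed both de novo enzymes.

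None of the PRC2 core genes passed the test, and the groups overlapped for all 3. Ezh2, the histone methyltransferase, had 2498 and 2336 normalized counts in the resistant libraries, against 2802 and 2461 in the control libraries. The groups overlapped, and its log2 fold change was -0.12 ± 0.12 (adjusted p = 0.563, interval of the fold from 0.761 to 1.11). Eed, the subunit that binds the finished mark, had 2242 and 2016 normalized counts in the resistant libraries, against 1989 and 2191 in the control libraries, a log2 fold change of 0.03 ± 0.12 whose sign turned under scaling to total reads. Suz12, the scaffold of the complex, had 6653 and 6379 normalized counts in the resistant libraries, against 6590.0 and 6671 in the control libraries. Its log2 fold change was -0.03 ± 0.10 (adjusted p = 0.902), with the narrowest interval of the 10 genes, from 0.837 to 1.15. Eed had an interval from 0.840 to 1.24. None of the 3 intervals reached a 1.5-fold change in either direction. Ezh1, the other PRC2 methyltransferase, which is known from resting cells, had 2771 and 2843 normalized counts in the resistant libraries, against 2953 and 3040 in the control libraries. Both resistant libraries were below both controls for Ezh1, but its log2 fold change of -0.09 ± 0.10 did not pass (limma adjusted p = 0.615). The ratio of Ezh2 to Ezh1 per kilobase was 1.00 and 0.915 in the resistant libraries, against 1.06 and 0.902 in the control libraries. In this ratio the groups overlapped.

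**Figure D3:**
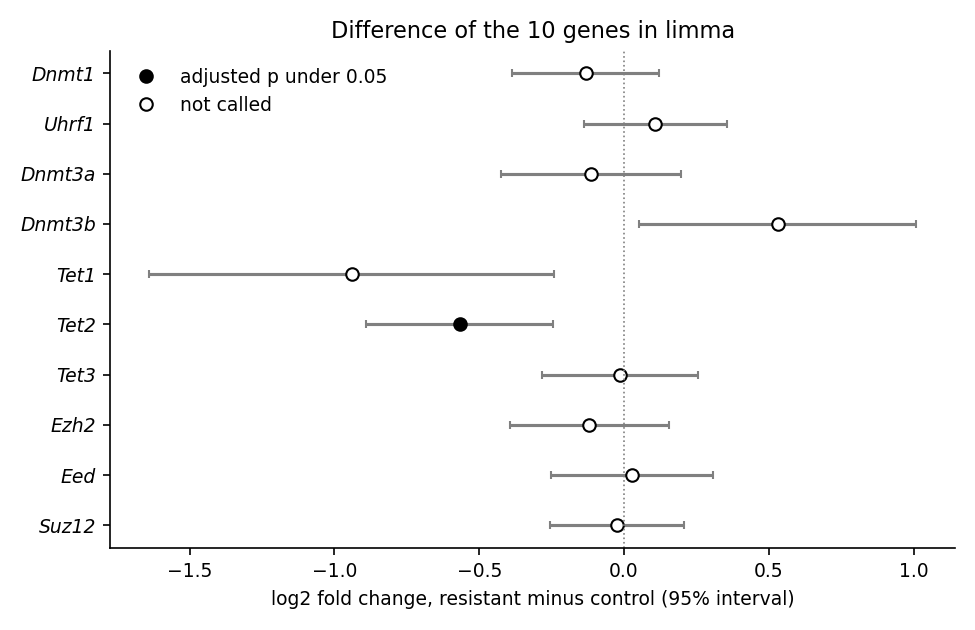
Log2 fold change of each gene, resistant minus control (horizontal axis), with its 95% interval from limma, and a filled point where the adjusted p was under 0.05. Only Tet2 (-0.57) is filled, the intervals of Tet1 (-0.94) and Dnmt3b (0.53) also leave out 0, and the 3 PRC2 core genes lie between -0.12 and 0.03.

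Levels of different genes compare only per length. In RPKM, the reads per kilobase of merged exons scaled to library depth, Dnmt1 stood at 28.7 ± 0.0328 in resistant cells and 32.4 ± 3.26 in control cells. Suz12 followed with 27.2 ± 1.24 in resistant cells and 28.5 ± 0.70 in control cells. In resistant cells the means of Dnmt1 and Suz12 lay little more than the SD of Suz12 apart. Uhrf1 came next with 17.8 ± 0.118 in resistant cells and 17.0 ± 0.726 in control cells, ahead of Eed (11.5 ± 1.04 in resistant and 11.6 ± 0.978 in control cells) and Ezh2 (7.48 ± 0.472 in resistant and 8.36 ± 0.633 in control cells). Tet3 had 2.76 ± 0.0755 in resistant cells and 2.87 ± 0.295 in control cells. Dnmt3a had 1.77 ± 0.135 in resistant cells and 1.97 ± 0.154 in control cells. Tet2 had 0.883 ± 0.0306 in resistant cells and 1.35 ± 0.149 in control cells, and Dnmt3b had 0.930 ± 0.0129 in resistant cells and 0.665 ± 0.115 in control cells. Tet2 and Dnmt3b thus changed places between the groups, being nearly level in resistant cells, while the order of the others was shared. Tet1 was last, at 0.0349 ± 0.00071 in resistant cells and 0.0702 ± 0.00219 in control cells. Merged exons include all annotated isoforms, so a gene with a long untranslated end that the cells use little is understated on this scale.

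The starts of these genes also bear on their link to the cell cycle, since Dnmt1, Uhrf1 and Ezh2 are known targets of E2F factors, which drive genes of DNA replication. The letters TTTNNCGC, a form of the E2F site, were searched on both strands of 15 RefSeq windows of the 10 genes. They occurred in 5 windows, belonging to Dnmt1, Uhrf1, Ezh2 and Suz12, and in 5.17% of all windows. Among windows with at least 10 CpGs, to which 14 of the 15 belong, the share was 9.37%. The motif itself holds a CpG and the 15 windows had a median of 30, so neither share is matched to them in CpG content. A match is a description of the letters and not of binding.

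E2f1 itself fell in resistant cells, with 3436 and 3540 normalized counts in the resistant libraries, against 5019 and 4477 in the control libraries (log2 fold change -0.44 ± 0.11, limma adjusted p = 0.0448). Of 25 proliferation genes tested, 3 fell and 0 rose, beside 4.73% called lower over all tested genes, and the median over the list was -0.08 on the log2 scale. The list gave more calls without either control library and fewer without either resistant library. Calls over all tested genes rose and fell in the same way, so these shifts are not particular to the list. The other 2 that fell were the replication helicase genes Mcm3 (-0.47 ± 0.11, adjusted p = 0.0349) and Mcm4 (-0.47 ± 0.10, adjusted p = 0.0304). None of the 3 calls held without resistant replicate 1, without resistant replicate 2 or in the unfiltered table. The proliferation marker Mki67 had 9336 and 8919 normalized counts in the resistant libraries, against 8006 and 12569 in the control libraries. The control libraries lay on both sides of the resistant ones there.

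Other genes of the same pathways were counted in 6 lists. Of 74 tested genes, 3 rose and 4 fell, beside 5.32% called higher and 4.73% called lower over all genes, and their median log2 fold change was -0.02. These counts fell without either resistant library and rose without either control library, and so did the counts over all tested genes. The 7 calls included larger differences than that of Tet2. These lists were drawn up with earlier results of these data known, so their counts are descriptions.

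Among 13 tested partners of DNA methylation, 1 fell and none rose. Both counts depended on the libraries kept, and some partners were called higher without either control library, where calls rose over all tested genes too. Nsd1, which places the histone H3 lysine 36 mark that guides Dnmt3a to DNA, had 211 and 200 normalized counts in the resistant libraries, against 716 and 605 in the control libraries. The groups lay far apart, at a log2 fold change of -1.68 ± 0.17 (adjusted p = 0.00152). Uhrf2, the paralog of Uhrf1, had -0.38 ± 0.14 and did not pass (adjusted p = 0.138). Leaving out control replicate 1 brought it to -0.58, and leaving out control replicate 2 brought it to -0.18. Of 15 partners of demethylation, Cxxc4 was called lower and Gadd45a rose, and these counts changed with each library left out, as did those over all tested genes. Gadd45a, a stress-induced gene also studied as a promoter of demethylation, had 13232 and 11137 normalized counts in the resistant libraries, against 4794 and 5313 in the control libraries (1.27 ± 0.12, adjusted p = 0.00128). Of 7 readers of methylated CpG, 1 rose: Zbtb38, a zinc finger protein that binds methylated DNA, had 5860 and 5885 normalized counts in the resistant libraries, against 2774 and 2791 in the control libraries (1.08 ± 0.10, adjusted p = 0.00107). The methyl-CpG-binding gene Mbd3 had -0.22 ± 0.11 and did not pass (adjusted p = 0.265).

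Around the PRC2 core, single accessory genes were called. Of 11 tested accessory and alternative subunits, Rbbp7 rose and Epop fell, and these counts changed with each library left out, as did those over all tested genes. Epop, which ties PRC2 to the elongin complex, had 28.5 and 38.6 normalized counts in the resistant libraries, against 154 and 148 in the control libraries (-2.15 ± 0.27, adjusted p = 0.00386). Rbbp7, a histone-binding protein that PRC2 shares with other chromatin complexes, had 18247 and 17879 normalized counts in the resistant libraries, against 13159 and 13543 in the control libraries (0.44 ± 0.10, adjusted p = 0.0378). The Rbbp7 call was lost without either one of the resistant libraries, in the unfiltered table and under scaling to total reads (0.40, adjusted p = 0.0541). Lcor and Lcorl, whose loci encode the PRC2 cofactors PALI1 and PALI2, did not pass. Lcor had a log2 fold change of -0.22 ± 0.14 (adjusted p = 0.385), and Lcorl had 0.64 ± 0.23 (adjusted p = 0.128). Leaving out 1 library moved Lcor between -0.38 and -0.049, and both ends came from dropping a control library.

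Polycomb repressive complex 1, which ubiquitinates histone H2A, had 23 tested subunits, of which 1 fell and none rose. These counts changed with each library left out, as did those over all tested genes, and some subunits were called higher without control replicate 2. Bcor, the X-linked scaffold of a variant form of the complex, had 883 and 1030 normalized counts in the resistant libraries, against 1584 and 1458 in the control libraries (-0.67 ± 0.13, adjusted p = 0.0234). The call ended without resistant replicate 1 (adjusted p = 0.258), without resistant replicate 2 (0.0934) and with no filter (0.0924). Its paralog Bcorl1 had -0.39 ± 0.12 and did not pass (adjusted p = 0.0884). Leaving out 1 library moved Bcorl1 between -0.49 and -0.30. None of 5 tested enzymes that oppose Polycomb passed. The deubiquitinase gene Bap1 had -0.07 ± 0.12, and the H3 lysine 27 demethylase gene Kdm6b had -0.06 ± 0.12.

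**Figure D4:**
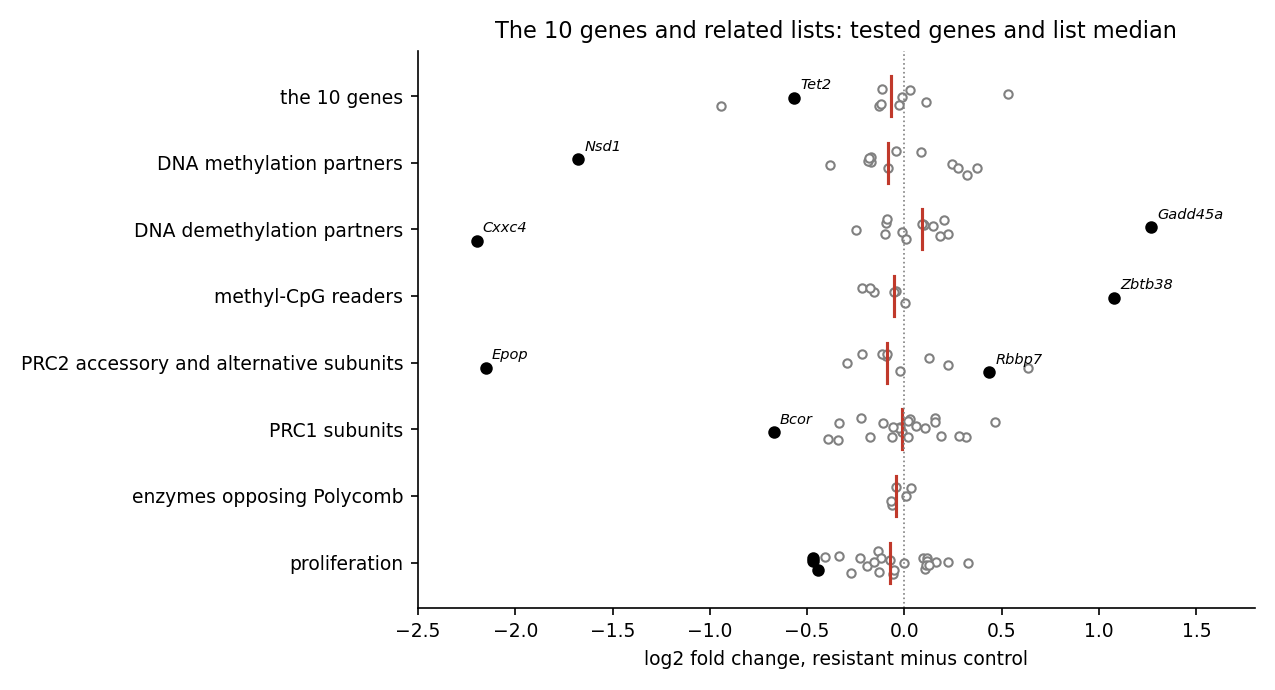
Log2 fold change, resistant minus control (horizontal axis), of every tested gene of the 10-gene set, the 6 pathway lists and the proliferation list, with filled points for an adjusted p under 0.05 and a red bar at each list's median. Medians lie between -0.09 and 0.09. The named points are the called genes outside the proliferation list and run from Cxxc4 (-2.20) to Gadd45a (1.27). Some unnamed points lie farther from their list's median than some named ones. The 3 filled proliferation points are Mcm3, Mcm4 and E2f1.

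Genes that these systems are known to silence were mostly silent in both groups. Many genes of the whole table were silent as well: 28603 of 55385 had no read in any library, and 14238 passed the filter. Of 15 known Polycomb targets, 8 had no read in any library and 6 had at most 2 reads in any library. The exception was Gata4, a transcription factor gene of heart and endoderm, with 718 and 754 normalized counts in the resistant libraries, against 671 and 790 in the control libraries. These groups overlapped (0.02 ± 0.15, adjusted p = 0.962). Of 19 genes known to be silenced by DNA methylation, most of them germline genes, 14 stayed under the filter, with at most 15 reads in any library. Of the 5 tested genes, 1 was called higher and 3 lower, beside 5.32% and 4.73% over all tested genes. A gene of this list that is silent in 1 group is tested only through the other, as Mov10l1 was, so the count is no support for a direction. Mov10l1, a helicase of the germline piRNA pathway, had 415 and 479 normalized counts in the resistant libraries, against 0 in both control libraries. Rhox5, an X-linked homeobox gene, had 23.4 and 22.5 normalized counts in the resistant libraries, against 1880.0 and 1325 in the control libraries. Xlr3a, which has near-identical copies, and the testis bromodomain gene Brdt (-1.08 ± 0.22, adjusted p = 0.0248) also fell, the Brdt call being lost without either one of the resistant libraries and in the unfiltered table. Taf7l had 0.36 ± 0.58 and did not pass. Most members of this list had next to no reads, and whether the differences of the others are linked to those of Tet2, Tet1 or Dnmt3b was not tested.

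**Figure D5:**
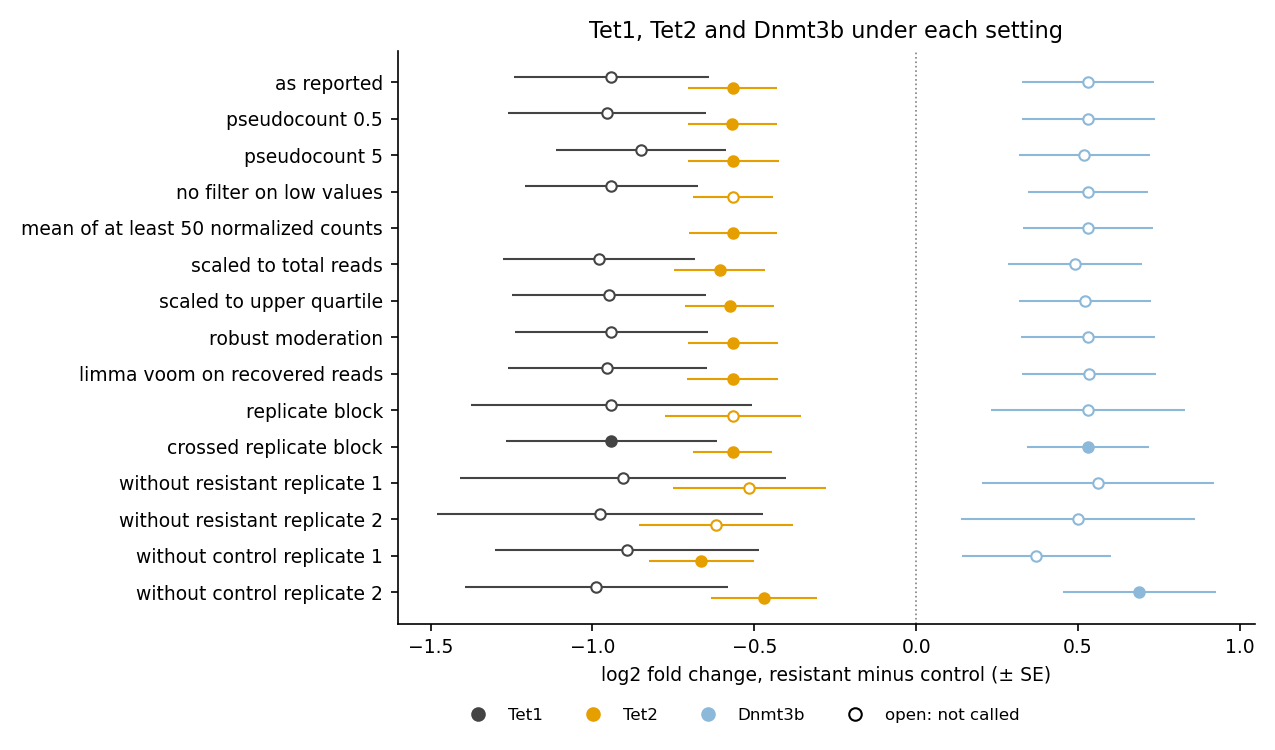
Log2 fold change, resistant minus control (horizontal axis, with SE), of Tet1, Tet2 and Dnmt3b as reported and under each other setting, filled where the adjusted p was under 0.05. Every point of Tet1 and Tet2 lies below 0 and every point of Dnmt3b above it, but filled and open points alternate with the setting: Tet2 is open without either one of the resistant libraries, among others, and Dnmt3b is filled without control replicate 2 (0.69).

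Exons of other annotated genes overlapped only small parts of these 10. Exons of Dnmt3a, Tet2, Ezh2, Eed and Suz12 overlap those of opposite-strand transcripts, over 0.255% of the exon bases of Tet2 and at most 6.82%, in Eed. The overlapping transcripts present in the table had at most 2 reads in a library, and those over Ezh2 and Suz12 were not in it. No source used here says whether reads were assigned by strand, so how many reads fell in the overlaps is not known.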

How the data were processed

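Bulk RNA-seq of 2 resistant and 2 control libraries was analysed. The table deposited by the authors holds log2 values, made with STAR and DESeq2 on mm10 per the submitters' processing notes (versions not listed). From the values, they are log2 of 1 plus size-factor-scaled reads: undoing the log gave whole reads for 100% of values, at a tolerance of 0.01 reads. Groups were taken from the source labels. Symbols came from a supplied table of gene names, and positions and merged exon lengths from GENCODE M21 (GRCm38), all joined by identifier without its version for 55144 of 55385 identifiers. The filter asked for a mean of 10 or more normalized counts, and the fit used limma 3.58.1 (R 4.3.3; eBayes with trend, no block, two-sided). Intervals are 95% and moderated. The fitting was tested on simulated data with the same dispersion for every gene and both groups. That setting is unlike these libraries, whose control pair differed more than the resistant pair. Tet1 and Cxxc4 rest on few reads.

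Alternatives were other pseudocounts, filters and scalings, robust moderation, limma voom on the recovered reads, a replicate block and leaving out each library. The 10 genes and the lists were chosen with earlier results of these data known. The text names all 10 genes, Ezh1, Lcor and, from each list, every called gene or, where fewer than 2 were called, the tested genes with the smallest p, up to 2. The 5 protein-coding genes nearest to Tet2, the gene with the smallest p, were also named (Mki67, Lcorl and Taf7l were added after their values were seen). Of the genes listed, Ezhip had no matching symbol and was not analysed here. Promoter windows are from RefSeq.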

Additional observations from a re-analysis of the deposited data

How the results depend on the processing

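Every setting that kept all libraries kept the sign of 9 of the 10 genes. Eed turned to -0.013 when scaled to total reads, as did Gata4 to -0.025. The Tet2 call (log2 fold change -0.57) ended with no filter on low values, where 26782 genes were tested, leaving 0 of the 10 genes called lower. That setting gave 126 genes higher and 185 lower over the whole table, against 758 and 674, and 2 lower in the 6 pathway lists. Tet1 has no value under a minimum mean of 50. Leaving out 1 library moved Tet2 between -0.66 and -0.47, Dnmt3b between 0.37 and 0.69, Tet3 between -0.10 and 0.075, Eed between -0.050 and 0.10 and Suz12 between -0.056 and 0.0049. The same fits moved Bap1 between -0.19 and 0.049, Gata4 between -0.10 and 0.13 and Kdm6b between -0.16 and 0.037. They gave 0 to 1 of the 10 genes higher and 0 to 1 lower, 2 to 10 pathway genes higher and 2 to 11 lower, and 146 to 2074 genes higher and 234 to 1993 lower over the table. A library left alone in its group is assumed to vary like the other group.

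The labels do not say whether the replicate numbers pair the libraries. Deviations of same-numbered libraries from their group means correlated at -0.36, but with 2 libraries per group this value cannot settle it. With the replicate number as a block, Tet2 kept -0.57 at adjusted p = 0.101, 0 of the 10 genes were called lower, and 628 genes were higher and 585 lower. The block also ended the calls of E2f1 (adjusted p = 0.113), Mcm3 (0.0837), Mcm4 (0.0850) and Rbbp7 (0.140), leaving 0 proliferation genes called. A crossed block, added after seeing the data, called 1 of the 10 genes higher (Dnmt3b, 0.53) and 2 lower (Tet1, -0.94, and Tet2), 8 pathway genes higher and 9 lower, and 2402 and 2182 genes over the table. Limma voom gave 742 higher and 642 lower. Without length scaling the control ratio of Dnmt3a to Dnmt3b was 9.87 in place of 3.03.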
